A study of Mus musculus with 15 samples.

Results

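The mitotic genes described here encode the kinases, checkpoint proteins, kinetochore parts, motors, cytokinesis factors and condensins that carry a cell through division. A list of 49 gene symbols was matched to the gene names in the scanner files of a mouse array, and 48 were found by exact name among the 19400 genes tested. The other listed gene, Sgol1, which protects centromeric cohesion, stands on the array as Sgo1 and is given apart from the counts. Each gene was read by its brightest tested probe, a choice that uses the measured signal. The list of symbols had no measured value in its rule, but it was chosen with earlier results of these data known.

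RAW264.7 is a mouse macrophage-like cell line, and the 15 one-colour arrays hold 5 groups of 3. In 4 groups the cells had a glucocorticoid at 100 nM: dexamethasone (DEX), fluticasone furoate (FF), or 1 of 2 compounds known here by the codes VSG158 and VSG159. The fifth group, called vehicle below, is labelled only with ethanol and DMSO. The treatment protocol, which is the same for every sample, gives the steroid 1 h before lipopolysaccharide (LPS, a bacterial cell-wall product that activates macrophages) at 1 ug/ml for 16 h. LPS is therefore taken to be common to all 5 groups, which the vehicle labels do not state, and neither do the labels say which solvent carried which compound. The design text speaks of duplicates where the labels number 3 replicates, and nothing says that these came from separate cultures, so the p-values may measure technical spread only.

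As background, CDK1 with cyclin B drives entry into mitosis, and PLK1 and the Aurora kinases build the spindle and ready the kinetochores. The checkpoint proteins then hold back the anaphase-promoting complex (APC/C) until every kinetochore is attached, after which separase opens the cohesin rings and the central spindle guides cytokinesis. Transcripts of these genes are low in resting cells and peak in G2 and mitosis, under the MuvB complexes with B-MYB and FOXM1 that bind CHR elements in their promoters. Macrophages activated with LPS are known to slow or leave the cell cycle. In bulk RNA, a different share of dividing cells and a different amount of RNA per dividing cell cannot be told apart.

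The 75th percentile of the processed signal lay between 695 and 1223 on the 15 arrays, no spot reached saturation, and 39.6% to 50.4% of spots stood well above background. All 8 macrophage markers (Adgre1, Cd68, Csf1r, Itgam, Cd14, Ptprc, Lyz2 and Spi1) were well above background on all 15 arrays. Against vehicle, Csf1r (1.14 to 1.47) and Itgam (0.95 to 1.00) were called higher and Spi1 (-1.02 to -0.62) lower with each of the 4 steroids. Ptprc was called higher with DEX and VSG158 and Cd14 lower with FF and VSG158, and Adgre1, Cd68 and Lyz2 were called with none. Of 16 markers of fibroblasts, epithelium, lymphocytes and erythroid cells, 7 were above background on no array, among them the defining Col1a1, Pdgfra, Cdh1 and Krt8. The summed signal of the 16 was 4375 to 10973 with DEX, 2780 to 4258 with FF, 3486 to 7695 with VSG158, 3122 to 19590.5 with VSG159 and 2857 to 4470 with vehicle. Hba-a1, Cd3e and Dcn were above background on all 15 arrays, and these 3 with Cd3d (6 arrays) and Col1a2 (3 arrays) were bright enough to be tested. Against vehicle, Dcn was called higher with each of the 4 steroids (0.66, 1.23, 0.95 and 1.16 with DEX, FF, VSG158 and VSG159) and Cd3d lower with each (-1.67, -1.90, -1.74 and -1.85). The fibroblast gene Col1a2 was called lower with DEX (-1.38) and not with the others (-0.91, -0.62 and -0.96 with FF, VSG158 and VSG159), and Cd3e and Hba-a1 were called with none. The part of these markers in the values of the mitotic genes was not tested.

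Most mitotic genes were higher after a steroid than with vehicle. A gene was called when limma's moderated test, Benjamini-Hochberg adjusted over all genes tested in that comparison, gave an adjusted p under 0.05. With DEX, 41 of the 48 were called higher and 2 lower, beside 23.4% of all genes called higher and 23.3% lower. With FF the counts were 41 and 1 (all genes 21% and 21.5%). With VSG158 they were 41 and 1 (19.9% and 24.7%), and with VSG159 42 and 1 (19.2% and 25.2%). A change of at least 2-fold upwards was called for 32 of the 48 with DEX, 39 with FF, 36 under VSG158 and 38 under VSG159. Over all genes tested, such calls numbered 1690, 1704, 1519 and 1532 in the same order. The DEX counts of 41 and 32 include Kif11, which was not well above background on any DEX or vehicle array. The median difference of the 48 genes was 1.22 on the log2 scale with DEX, 1.82 with FF, 1.70 under VSG158 and 1.87 under VSG159, against 0.03, -0.05, -0.06 and -0.06 over all genes tested.

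In all, 38 genes were called higher with every steroid and 1, Pttg1, lower with every steroid. The 38 include Kif11, whose DEX call was made within background. Calls shared by every steroid were not counted over all genes tested. Cdc25b and Smc4 were called with none, and the remaining 7 (Bub1, Bub3, Cenpa, Aurkb, Kif2c, Tpx2 and Ncapd2) with some. The 4 comparisons share the vehicle arrays, so they are not independent of one another. DEX and FF share no slide with vehicle. With slide as a fixed block, which ties the slides through VSG159 alone, 33 genes were called higher with DEX and 40 with FF, and on slide 1 alone 43 were called higher with VSG158 and 42 with VSG159. When position on the slide was fitted as well, the median differences were 1.53 with DEX and 2.01 with FF, but limma called 0 genes with DEX (20 at an unadjusted p under 0.05) and 20 with FF.

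**Figure D1:**
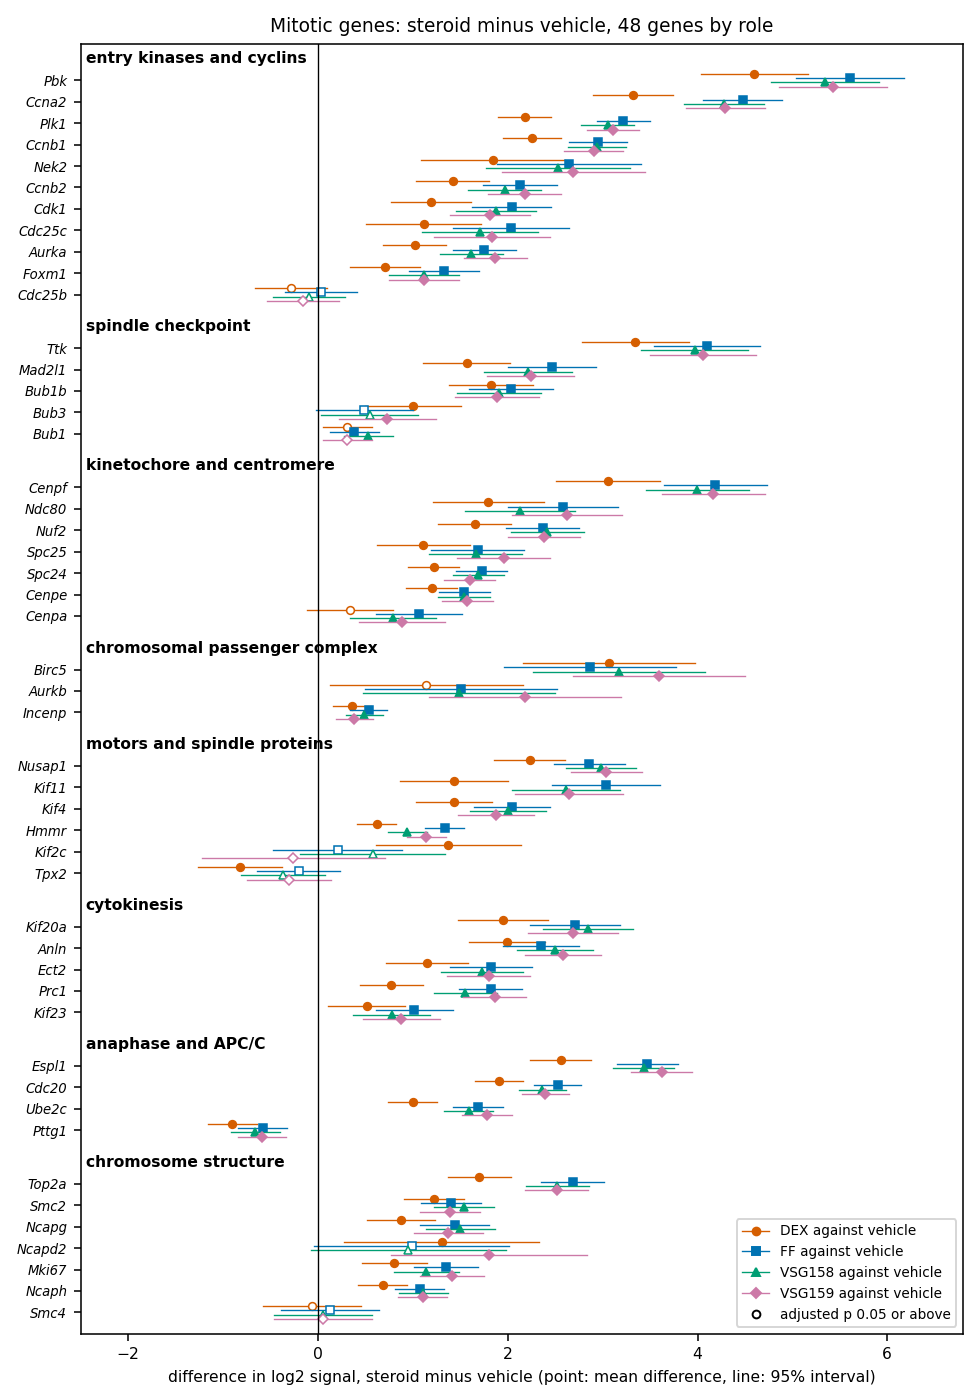
Difference in log2 signal between each steroid and vehicle for the 48 mitotic genes, grouped by role and sorted by mean difference, with 95% intervals from limma (3 arrays a group). Pbk lies farthest right (4.60, 5.61, 5.35 and 5.43 with DEX, FF, VSG158 and VSG159), Pttg1 lies left of 0 with all 4 steroids, and the DEX point is the lowest of the 4 in 44 genes.

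Levels are given below as scaled log2 signal, that is log2 of the processed signal after the arrays were brought to 1 common 75th percentile. They compare arrays for 1 probe and do not compare 1 gene with another. Differences are steroid minus vehicle on that log2 scale, with the standard error of the fit and n = 3 arrays a group.

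Among the entry kinases and cyclins, 10 of 11 genes rose with each steroid, with group medians of 1.42, 2.13, 1.97 and 2.18 with DEX, FF, VSG158 and VSG159. Pbk, a mitotic kinase also called TOPK, read 9.15, 8.95 and 9.02 with DEX, 10.06, 10.22 and 9.87 with FF, 10.05, 10.15 and 9.17 with VSG158 and 9.50, 10.01 and 10.11 with VSG159, against 4.70, 4.05 and 4.57 with vehicle. It was not well above background on any vehicle array, so its change is a bound: at least 13.6-fold higher with DEX, 27.3-fold with FF, 22.8-fold under VSG158 and 24.1-fold under VSG159. Each bound sets the steroid mean against the higher of the probe's own signal and the dimmest signal well above background on each vehicle array (highest adjusted p 1.03e-07).

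Cdk1, the kinase that drives mitotic entry, read 9.46, 9.27 and 9.27 with DEX, 10.24, 10.32 and 9.98 with FF, 10.23, 10.20 and 9.63 with VSG158 and 9.57, 10.01 and 10.28 with VSG159, against 8.15, 8.07 and 8.22 with vehicle. Every steroid array lay above every vehicle array, and the DEX arrays lay below all 9 other steroid arrays. The differences were 1.19 ± 0.19 with DEX, 2.04 ± 0.19 with FF, 1.88 ± 0.19 under VSG158 and 1.81 ± 0.19 under VSG159 (highest adjusted p 0.000348). A dimmer Cdk1 probe, annotated to an Ensembl transcript, did not show this, with differences of -0.34, -0.30, -0.65 and -0.32 and no call, so the Cdk1 values speak for 1 of its 2 probes. The DEX call was also lost with slide as a fixed block.

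Ccnb1, the cyclin B1 partner of CDK1, read 8.69, 8.53 and 8.62 with DEX, 9.22, 9.49 and 9.24 with FF, 9.19, 9.48 and 9.23 with VSG158 and 9.04, 9.39 and 9.36 with VSG159, against 6.39, 6.12 and 6.57 with vehicle. The groups of steroid and vehicle did not overlap, and the differences were 2.25 ± 0.14 with DEX, 2.95 ± 0.14 with FF, 2.94 ± 0.14 under VSG158 and 2.91 ± 0.14 under VSG159 (highest adjusted p 2.12e-07). All 4 of its probes were called higher with DEX. Ccnb2, the other B-type cyclin and the middle gene of the group, read 9.88, 10.01 and 9.76 with DEX, 10.52, 10.79 and 10.47 with FF, 10.73, 10.52 and 10.04 with VSG158 and 10.37, 10.70 and 10.88 with VSG159, against 8.54, 8.40 and 8.46 with vehicle. Its differences were 1.42, 2.13, 1.97 and 2.18 with DEX, FF, VSG158 and VSG159. Ccna2, cyclin A2 of S and G2 phase, had the next largest differences of this group after Pbk, at 3.32 ± 0.19 with DEX, 4.47 ± 0.19 with FF, 4.28 ± 0.19 under VSG158 and 4.29 ± 0.19 under VSG159.

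Plk1, the polo-like kinase of spindle assembly, read 10.68, 10.74 and 10.61 with DEX, 11.62, 11.90 and 11.62 with FF, 11.49, 11.70 and 11.45 with VSG158 and 11.51, 11.78 and 11.52 with VSG159, against 8.37, 8.39 and 8.73 with vehicle. The 3 DEX arrays lay between the vehicle arrays and the 9 other steroid arrays, with no overlap on either side. Its differences were 2.18 ± 0.13 with DEX, 3.22 ± 0.13 with FF, 3.05 ± 0.13 under VSG158 and 3.11 ± 0.13 under VSG159, about 4.53-fold with DEX and 9.3-fold with FF. Foxm1, the transcription factor of late cell-cycle genes, read 10.29, 10.34 and 10.11 with DEX, 10.68, 11.09 and 10.83 with FF, 10.85, 10.85 and 10.28 with VSG158 and 10.48, 10.78 and 10.70 with VSG159, against 9.39, 9.49 and 9.74 with vehicle. Its differences were below the median of the 48 genes with each steroid, at 0.71, 1.33, 1.12 and 1.12 with DEX, FF, VSG158 and VSG159 (adjusted p 0.00494 with DEX and at most 0.000188 with the others).

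Cdc25b, a phosphatase that activates CDK1, was the exception in this group and read 7.95, 8.28 and 8.30 with DEX, 8.53, 8.56 and 8.40 with FF, 8.25, 8.40 and 8.46 with VSG158 and 8.64, 8.01 and 8.25 with VSG159, against 8.41, 8.76 and 8.21 with vehicle. The groups overlapped, and its differences of -0.29, 0.03, -0.09 and -0.16 with DEX, FF, VSG158 and VSG159 were not called (lowest adjusted p 0.203). The remaining entry genes, Nek2 of centrosome separation, Aurka of spindle poles and the phosphatase gene Cdc25c, rose with each steroid, by 1.11 to 1.84 for Cdc25c and Nek2 with DEX and by 1.02 for Aurka. Nek2 was well above background on 1 of 3 vehicle arrays and Cdc25c on 2.

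**Figure D2:**
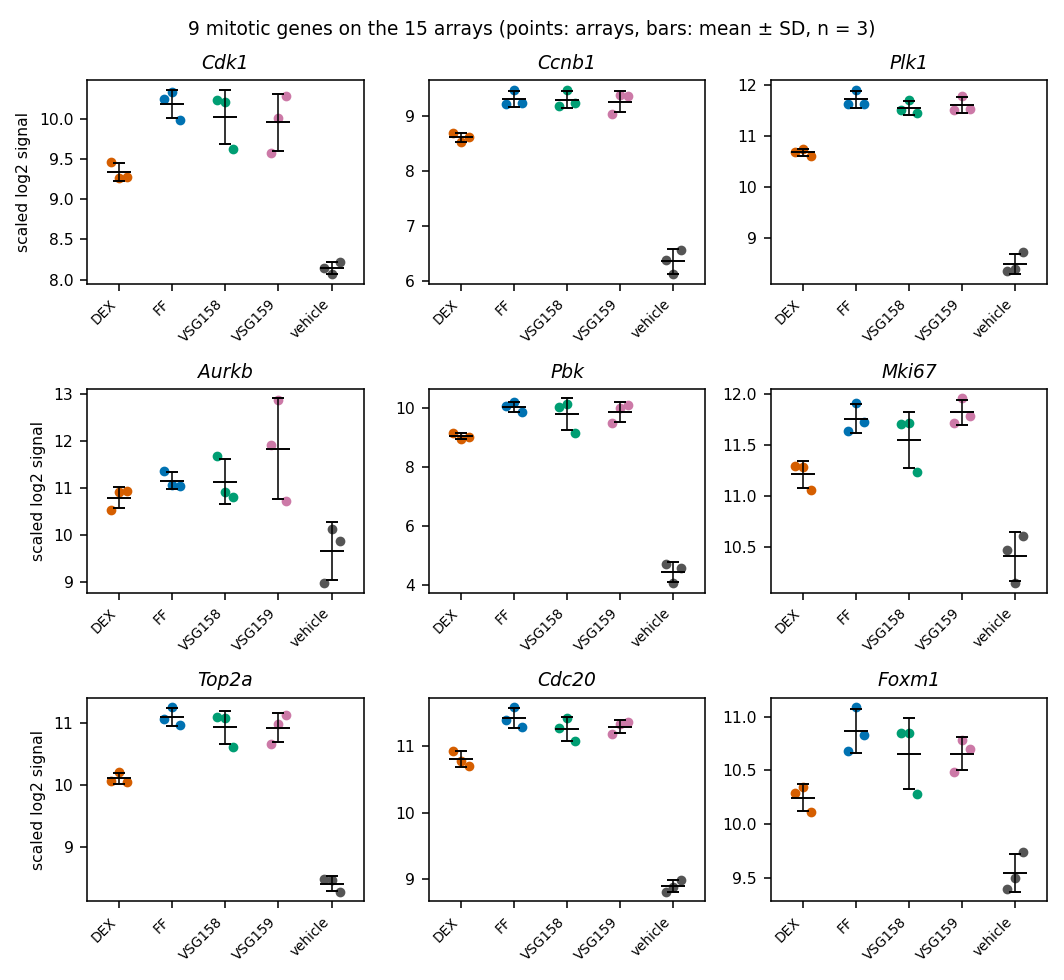
Scaled log2 signal of 9 mitotic genes on each of the 15 arrays, with group means and SD (n = 3 each); the vertical axes do not start at 0 and differ between panels. In each panel every steroid array lies above every vehicle array, and Aurkb has the widest spread, from 10.72 to 12.87 with VSG159.

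The promoters of these genes were read from RefSeq (build GRCm38.p6) as 250 bases before to 50 after the annotated start, 1 window a gene, and 38 of the 48 genes had an entry. Both strands were searched for TTTGAA and its variant TTTAAA (CHR elements), CCAAT (the NF-Y box), and TTCCCGC and TTGGCGC (E2F sites). TTTGAA was present in 27 of the 38 windows (71.05%), against 18.11% of 27025 genes with an entry. CCAAT was present in 29 (76.32%, against 37.92%), and 2 or more copies of it in 19 (50%, against 12.16%). TTTAAA was found in 9 (23.68%, against 13.16%), TTGGCGC in 6 (15.79%, against 2.538%) and TTCCCGC in 1 (2.632%, against 4.662%). The windows were richer in G and C than those of all genes (median 59% against 52.67%), and a match of letters is a description, not a binding site.

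Whether the motifs bear on the rises was not tested. The 125 bases before the start are shown for Cdk1, Plk1, Mki67 and Top2a, which have TTTGAA in the window. They lie at chr10:69352913-69353037 (minus strand), chr7:122159310-122159434 (plus strand), chr7:135716380-135716504 (minus strand) and chr11:99024190-99024314 (minus strand) and run 5′ to 3′ along the gene. Capitals mark the searched motifs on either strand, so TTCAAA and ATTGG are the reverse complements of TTTGAA and CCAAT.
Cdk1: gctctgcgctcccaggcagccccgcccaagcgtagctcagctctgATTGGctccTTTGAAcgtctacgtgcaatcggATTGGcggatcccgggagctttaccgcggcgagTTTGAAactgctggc
Plk1: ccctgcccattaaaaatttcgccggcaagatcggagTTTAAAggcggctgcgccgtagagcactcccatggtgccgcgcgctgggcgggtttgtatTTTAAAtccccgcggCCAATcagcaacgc
Mki67: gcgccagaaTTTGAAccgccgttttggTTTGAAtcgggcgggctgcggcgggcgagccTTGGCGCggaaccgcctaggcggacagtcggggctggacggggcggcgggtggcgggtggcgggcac
Top2a: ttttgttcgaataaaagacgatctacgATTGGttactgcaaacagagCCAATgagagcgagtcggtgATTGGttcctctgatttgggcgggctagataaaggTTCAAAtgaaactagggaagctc
Cdk1 had TTTGAA from base -71 and from -15, and Mki67 had it from -116 and -98. Top2a had it on the opposite strand from base -23, with NF-Y boxes from -98, -78 and -58. In Plk1 the stretch shown holds TTTAAA from -89 and -29 and CCAAT from -14, and its TTTGAA begins at base 31 after the start, outside the stretch.

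Of the 5 spindle checkpoint genes in the counts, 4 were called higher with each steroid, though not the same 4. Ttk, the MPS1 kinase that starts the checkpoint signal, read 7.41, 7.19 and 7.41 with DEX, 7.98, 8.43 and 7.86 with FF, 8.17, 8.19 and 7.52 with VSG158 and 7.64, 8.23 and 8.29 with VSG159, against 4.25, 3.53 and 4.20 with vehicle. It was not well above background on any vehicle array and was at least 4.17-fold higher with DEX, 7.03-fold with FF, 6.43-fold under VSG158 and 6.84-fold under VSG159 (highest adjusted p 1.01e-06). Bub1b, the checkpoint kinase-like protein BUBR1, read 9.75, 9.88 and 9.69 with DEX, 10.23, 9.88 and 9.84 with FF, 9.91, 10.04 and 9.63 with VSG158 and 9.51, 9.67 and 10.32 with VSG159, against 8.09, 8.04 and 7.71 with vehicle. Here the 4 steroids lay close together, with differences of 1.82 ± 0.20 with DEX, 2.03 ± 0.20 with FF, 1.91 ± 0.20 under VSG158 and 1.88 ± 0.20 under VSG159. Mad2l1, the MAD2 inhibitor of CDC20, rose by 1.57, 2.47, 2.22 and 2.24 with DEX, FF, VSG158 and VSG159.

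Bub1, the kinase that brings checkpoint proteins to the kinetochore, read 10.79, 10.58 and 10.71 with DEX, 10.65, 10.84 and 10.81 with FF, 10.87, 11.12 and 10.75 with VSG158 and 10.62, 10.59 and 10.87 with VSG159, against 10.49, 10.28 and 10.38 with vehicle. Its differences were small, 0.31 ± 0.12 with DEX, 0.38 ± 0.12 with FF, 0.53 ± 0.12 under VSG158 and 0.31 ± 0.12 under VSG159. They passed the test with FF and VSG158 (adjusted p 0.0206 and 0.00303) and not with DEX or VSG159 (0.0508 and 0.0516), a difference between steroids that was itself not called. The FF call of Bub1 was lost without FF replicate 2, FF replicate 3 or vehicle replicate 2 (highest adjusted p 0.0798). Bub3, which joins BUB1 and BUBR1 to kinetochores, was called with DEX (1.00, adjusted p 0.00401) and VSG159 (0.73, 0.0229), with values of 0.49 with FF and 0.54 with VSG158. Its VSG159 call was lost without VSG159 replicate 1, VSG159 replicate 2 or vehicle replicate 1 (highest adjusted p 0.0994). Sgo1 rose by 1.66, 2.31, 2.31 and 2.07 with DEX, FF, VSG158 and VSG159.

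All 7 kinetochore and centromere genes rose with FF, VSG158 and VSG159, and 6 with DEX. Cenpf, a large protein of the outer kinetochore, read 8.19, 7.89 and 7.73 with DEX, 9.03, 9.28 and 8.91 with FF, 9.08, 9.14 and 8.42 with VSG158 and 8.95, 8.97 and 9.24 with VSG159, against 4.85, 5.39 and 4.41 with vehicle. Its differences were 3.05 ± 0.25 with DEX, 4.19 ± 0.25 with FF and 4.17 ± 0.25 with VSG159. Under VSG158 Cenpf was about 16-fold higher, and the DEX arrays again lay between vehicle and the rest. Cenpf was well above background on only 1 of 3 vehicle arrays, so the sizes of these changes rest on a vehicle level mostly within background. Spc25, of the NDC80 complex that binds microtubule ends, read 12.53, 12.15 and 12.55 with DEX, 13.09, 13.14 and 12.72 with FF, 13.05, 13.00 and 12.84 with VSG158 and 13.17, 13.77 and 12.83 with VSG159, against 11.19, 11.12 and 11.60 with vehicle. It was the middle gene of the group at 1.11, 1.68, 1.66 and 1.96 with DEX, FF, VSG158 and VSG159. The other 3 subunits of the same complex rose too, Ndc80 by 1.80 to 2.63, Nuf2 by 1.65 to 2.42 and Spc24 by 1.22 to 1.72 across the 4 steroids. Ndc80 was well above background on 1 of 3 vehicle arrays.

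Cenpa, the histone H3 variant of centromeres, read 8.96, 8.45 and 8.54 with DEX, 9.34, 9.50 and 9.31 with FF, 9.41, 9.30 and 8.61 with VSG158 and 8.92, 9.29 and 9.38 with VSG159, against 8.19, 8.42 and 8.33 with vehicle. It was the smallest change here, called with FF, VSG158 and VSG159 (1.07, 0.79 and 0.88) and not with DEX (0.34 ± 0.21, adjusted p 0.205). Cenpe, a kinetochore motor, rose by 1.20 to 1.57.

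The chromosomal passenger complex corrects faulty attachments at centromeres, and its 3 listed genes were called higher with each steroid except Aurkb with DEX. Birc5, the survivin subunit, read 13.36, 13.80 and 14.85 with DEX, 13.58, 13.88 and 13.95 with FF, 13.89, 13.90 and 14.54 with VSG158 and 15.21, 14.76 and 13.62 with VSG159, against 10.80, 10.84 and 11.17 with vehicle. Its arrays scattered more than those of most genes with DEX and VSG159 (SD 0.763 and 0.822), and the differences were 3.07 ± 0.41 with DEX, 2.87 ± 0.41 with FF, 3.17 ± 0.41 under VSG158 and 3.60 ± 0.41 under VSG159. Aurkb, the kinase of the complex, read 10.54, 10.91 and 10.94 with DEX, 11.36, 11.08 and 11.04 with FF, 11.69, 10.91 and 10.81 with VSG158 and 11.91, 12.87 and 10.72 with VSG159, against 8.97, 10.13 and 9.86 with vehicle. The VSG159 arrays spanned more than 2 log2 units, and the difference with DEX, 1.14 ± 0.46, missed the threshold (adjusted p 0.0615). The Aurkb calls were lost with FF without FF replicate 1 or vehicle replicate 1 (highest adjusted p 0.0866) and with VSG158 without VSG158 replicate 1 or vehicle replicate 1 (0.0888). A dimmer Aurkb probe varied less and was called higher with all 4 steroids, by 1.23 with DEX, 2.30 with FF, 2.10 under VSG158 and 2.20 under VSG159. Incenp, the scaffold of the complex, read 14.30, 14.32 and 14.20 with DEX, 14.30, 14.51 and 14.55 with FF, 14.46, 14.43 and 14.33 with VSG158 and 14.27, 14.35 and 14.29 with VSG159, against 13.87, 13.84 and 14.05 with vehicle. Its differences were the smallest of the 3, 0.36, 0.54, 0.49 and 0.38 with DEX, FF, VSG158 and VSG159, all called (highest adjusted p 0.00659).

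Motors and spindle proteins were the most mixed group, with 5 of 6 called higher and 1 lower with DEX, and 4 of 6 higher with each other steroid. The 5 include Kif11, which was within background with DEX and with vehicle. Nusap1, which bundles spindle microtubules, read 8.32, 8.12 and 7.94 with DEX, 8.74, 8.83 and 8.70 with FF, 8.94, 9.11 and 8.58 with VSG158 and 8.73, 9.03 and 9.04 with VSG159, against 6.09, 5.58 and 6.03 with vehicle. It had the largest mean change of the group, 2.23 ± 0.17 with DEX, 2.86 ± 0.17 with FF, 2.98 ± 0.17 under VSG158 and 3.04 ± 0.17 under VSG159. Kif4, a chromosome-bound motor of the central spindle, read 7.35, 7.07 and 6.96 with DEX, 7.70, 7.88 and 7.63 with FF, 7.64, 7.66 and 7.79 with VSG158 and 7.23, 7.66 and 7.80 with VSG159, against 5.31, 5.94 and 5.83 with vehicle. Its differences were 1.44, 2.05, 2.01 and 1.87 with DEX, FF, VSG158 and VSG159 and no steroid array overlapped vehicle.

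Kif11, the EG5 motor that pushes spindle poles apart, read 4.77, 4.32 and 4.91 with DEX, 6.33, 6.53 and 5.94 with FF, 6.24, 5.94 and 5.37 with VSG158 and 5.44, 6.02 and 6.17 with VSG159, against 3.44, 3.19 and 3.06 with vehicle. It was not well above background on any vehicle or DEX array, so no fold is given for DEX. The fit's adjusted p was 0.000838, and Kif11 is counted among the genes called higher with DEX. Both levels lie within background, so that call cannot show a rise. Against vehicle it was at least 1.98-fold higher with FF, 1.48-fold with VSG158, where 1 of 3 arrays was above background, and 1.51-fold with VSG159. Hmmr, which links motors to spindle poles, rose by 0.62, 1.34, 0.94 and 1.14 with DEX, FF, VSG158 and VSG159.

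Tpx2, which activates Aurora A on the spindle, read 9.75, 9.63 and 9.45 with DEX, 10.35, 10.23 and 10.10 with FF, 10.25, 10.23 and 9.72 with VSG158 and 9.73, 10.08 and 10.57 with VSG159, against 10.54, 10.49 and 10.27 with vehicle. It went the other way from its neighbours, lower with DEX (-0.82 ± 0.20, adjusted p 0.00562), with differences of -0.20, -0.37 and -0.30 that were not called with FF, VSG158 and VSG159. Kif2c, the MCAK microtubule depolymerase, had 4 missing spots, which the fit dropped. It read 8.34 and 8.97 on 2 DEX arrays, 6.91, 7.77 and 7.79 with FF, 8.10 and 7.62 on 2 VSG158 arrays and 7.02 on 1 VSG159 array, against 7.14, 7.04 and 7.67 with vehicle. It was called with DEX alone (1.37, adjusted p 0.0133), a call that was lost without DEX replicate 2 (adjusted p 0.0917). Its other probe was called higher with all 4 steroids, by 2.35, 3.45, 2.72 and 3.27 with DEX, FF, VSG158 and VSG159.

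All 5 cytokinesis genes rose with each steroid, with medians of 1.15, 1.82, 1.72 and 1.86. Kif20a, the MKLP2 motor of the central spindle, read 8.51, 8.18 and 8.25 with DEX, 9.12, 9.25 and 8.84 with FF, 9.26, 9.53 and 8.84 with VSG158 and 8.75, 9.08 and 9.32 with VSG159, against 6.61, 5.99 and 6.48 with vehicle. Its differences were 1.95 ± 0.22 with DEX, 2.71 ± 0.22 with FF, 2.85 ± 0.22 under VSG158 and 2.69 ± 0.22 under VSG159. Ect2, the RhoA exchange factor that sets the cleavage plane, read 8.36, 8.15 and 8.18 with DEX, 8.86, 9.06 and 8.78 with FF, 9.08, 9.04 and 8.29 with VSG158 and 8.66, 9.03 and 8.93 with VSG159, against 7.23, 6.82 and 7.18 with vehicle. It rose by 1.15, 1.82, 1.72 and 1.80 with DEX, FF, VSG158 and VSG159. Anln, the anillin scaffold of the contractile ring, rose by 1.99 to 2.58, and Prc1, which crosslinks the central spindle, by 0.77, 1.82, 1.55 and 1.86 with DEX, FF, VSG158 and VSG159.

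Kif23, the MKLP1 motor of the centralspindlin complex, read 8.84, 9.07 and 8.86 with DEX, 9.68, 9.40 and 9.18 with FF, 9.24, 9.49 and 8.82 with VSG158 and 9.15, 9.13 and 9.58 with VSG159, against 8.55, 8.33 and 8.35 with vehicle. Its change was the smallest of the 5, 0.51 ± 0.19 with DEX, 1.02 ± 0.19 with FF, 0.78 ± 0.19 under VSG158 and 0.88 ± 0.19 under VSG159 (adjusted p 0.0399 with DEX). Leaving out any 1 of 7 arrays, among them each DEX array, brought the DEX difference above the threshold (highest adjusted p 0.121). Another Kif23 probe was called lower with DEX (-0.90, adjusted p 0.0179).

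Of the 4 anaphase genes, 3 rose and Pttg1 fell with every steroid. Espl1, separase, which cleaves cohesin, read 9.88, 10.12 and 9.76 with DEX, 10.79, 10.91 and 10.80 with FF, 10.70, 10.81 and 10.88 with VSG158 and 10.94, 11.27 and 10.76 with VSG159, against 7.20, 7.61 and 7.28 with vehicle. Its differences were 2.56 ± 0.15 with DEX, 3.47 ± 0.15 with FF, 3.43 ± 0.15 under VSG158 and 3.62 ± 0.15 under VSG159, about 5.88-fold with DEX and 12.3-fold with VSG159. Cdc20, the activator of the APC/C, read 10.93, 10.77 and 10.70 with DEX, 11.38, 11.58 and 11.29 with FF, 11.28, 11.42 and 11.07 with VSG158 and 11.18, 11.33 and 11.36 with VSG159, against 8.81, 8.88 and 8.99 with vehicle. It rose by 1.91, 2.53, 2.36 and 2.40 with DEX, FF, VSG158 and VSG159. Ube2c, the ubiquitin-conjugating enzyme of the APC/C, rose by 1.00, 1.69, 1.59 and 1.78 with DEX, FF, VSG158 and VSG159.

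Pttg1, securin, which holds separase inactive until anaphase, read 12.75, 12.66 and 12.75 with DEX, 12.80, 13.25 and 13.07 with FF, 13.03, 13.04 and 12.82 with VSG158 and 13.02, 13.15 and 12.94 with VSG159, against 13.50, 13.67 and 13.71 with vehicle. No steroid array overlapped the vehicle arrays, and the differences were -0.90 ± 0.12 with DEX, -0.58 ± 0.12 with FF, -0.66 ± 0.12 under VSG158 and -0.59 ± 0.12 under VSG159 (highest adjusted p 0.00148). Its dimmer probe was lower as well, at -1.82, -1.67, -1.22 and -1.40 with DEX, FF, VSG158 and VSG159. Separase and its inhibitor thus had opposite signs in all 4 comparisons.

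Among 7 genes of chromosome structure, 6 rose with DEX, 5 with FF, 5 under VSG158 and 6 under VSG159. Top2a, the topoisomerase that untangles sister chromatids, read 10.07, 10.21 and 10.06 with DEX, 11.07, 11.26 and 10.97 with FF, 11.09, 11.08 and 10.62 with VSG158 and 10.67, 11.00 and 11.13 with VSG159, against 8.48, 8.48 and 8.28 with vehicle. Its differences were 1.70 ± 0.15 with DEX, 2.68 ± 0.15 with FF, 2.52 ± 0.15 under VSG158 and 2.52 ± 0.15 under VSG159 and the DEX arrays stood apart from vehicle below and the other steroids above. Mki67, the Ki-67 protein that coats mitotic chromosomes and marks proliferating cells, read 11.29, 11.28 and 11.06 with DEX, 11.64, 11.91 and 11.73 with FF, 11.70, 11.71 and 11.24 with VSG158 and 11.72, 11.96 and 11.79 with VSG159, against 10.47, 10.15 and 10.61 with vehicle. It rose by 0.80 ± 0.16 with DEX, 1.35 ± 0.16 with FF, 1.14 ± 0.16 under VSG158 and 1.41 ± 0.16 under VSG159 (highest adjusted p 0.00127).

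Ncapd2, a condensin I subunit, read 11.83, 12.71 and 12.73 with DEX, 12.58, 11.54 and 12.19 with FF, 11.93, 11.86 and 12.42 with VSG158 and 13.59, 13.50 and 11.67 with VSG159, against 10.74, 11.31 and 11.30 with vehicle. It scattered widely and was called with DEX (1.30, adjusted p 0.0391) and VSG159 (1.80, 0.00796) and not with FF or VSG158 (0.117 and 0.125). Its DEX call was lost without DEX replicate 2, DEX replicate 3, FF replicate 3 or any 1 vehicle array (highest adjusted p 0.122). A second Ncapd2 probe was called with all 4 steroids. The other condensin I subunits Ncapg and Ncaph and the core condensin ATPase Smc2 rose with each steroid, by 0.68 (Ncaph with DEX) to 1.54 (Smc2 with VSG158). The 2 other Smc2 probes gave 0.20 and -0.17 with DEX. Smc4, the partner ATPase of SMC2, read 12.32, 11.94 and 11.99 with DEX, 12.26, 12.40 and 12.13 with FF, 12.48, 12.56 and 11.55 with VSG158 and 12.08, 12.01 and 12.49 with VSG159, against 12.18, 12.01 and 12.24 with vehicle. The groups overlapped and none of its differences, -0.06, 0.12, 0.05 and 0.05 with DEX, FF, VSG158 and VSG159, was called (lowest adjusted p 0.732). A dimmer Smc4 probe was called lower with DEX (-0.45) and higher with VSG158 (0.30), and not with FF or VSG159 (-0.07 and 0.09). That probe was also called above DEX with VSG158 (0.75) and VSG159 (0.54). The dimmest Smc4 probe was called in none of these comparisons.

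Among the 22 mitotic genes with more than 1 tested probe, the other probes mostly moved the same way against vehicle. With DEX the called genes had 30 further probes: 19 shared the call, 7 shared only the sign, 3 had the other sign uncalled and 1 (of Kif23) was called in the other direction. With FF the counts were 25, 3, 1 and 0 of 29, with VSG158 23, 5, 1 and 0 of 29, and with VSG159 25, 3, 2 and 0 of 30. Against DEX a smaller share kept the call. The counts there were 7, 8, 1 and 0 of 16 with FF and 3, 6, 1 and 0 of 10 with VSG158. With VSG159 they were 6, 9, 0 and 0 of 15. Other probes of Birc5, Aurkb and Smc2 were called above DEX with FF, VSG158 and VSG159, where their main probes were not.

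**Figure D3:**
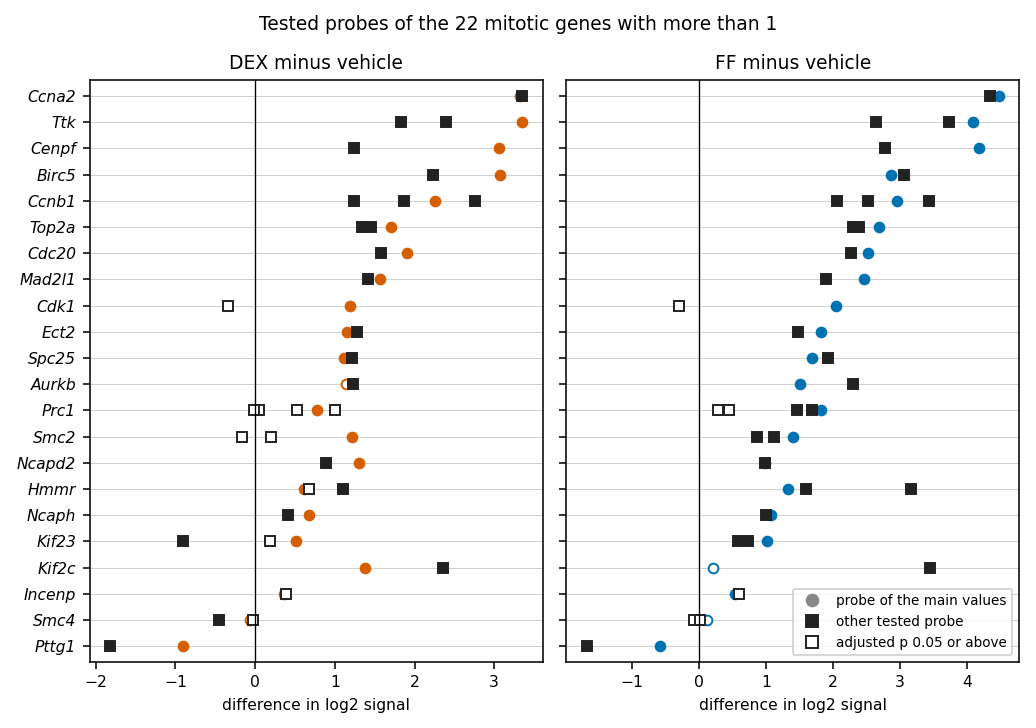
Difference in log2 signal with DEX (left) and FF (right) minus vehicle for each tested probe of the 22 mitotic genes that have more than 1; circles are the probes used for the main values, squares the others, and open symbols were not called. The Cdk1 square lies left of 0 while its circle lies at 1.19 and 2.04.

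The levels with DEX lay between vehicle and the other steroids for most of these genes. The group mean was lowest with vehicle in 43 of the 48, and in 40 of those the next lowest was DEX. Among the 4 steroids DEX had the lowest mean in 44 genes and the highest in 2. These orders were not counted over all genes tested, so how far they are particular to the 48 is not known. The median over the 48 genes, taken per array over the vehicle mean, was 1.29, 1.24 and 1.27 on the DEX arrays, 1.79, 1.96 and 1.73 with FF, 1.95, 1.86 and 1.48 with VSG158 and 1.59, 1.97 and 2.05 with VSG159, against 0.02, -0.08 and 0.09 with vehicle. The 3 DEX arrays lay below all 9 arrays of the other steroids.

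**Figure D4:**
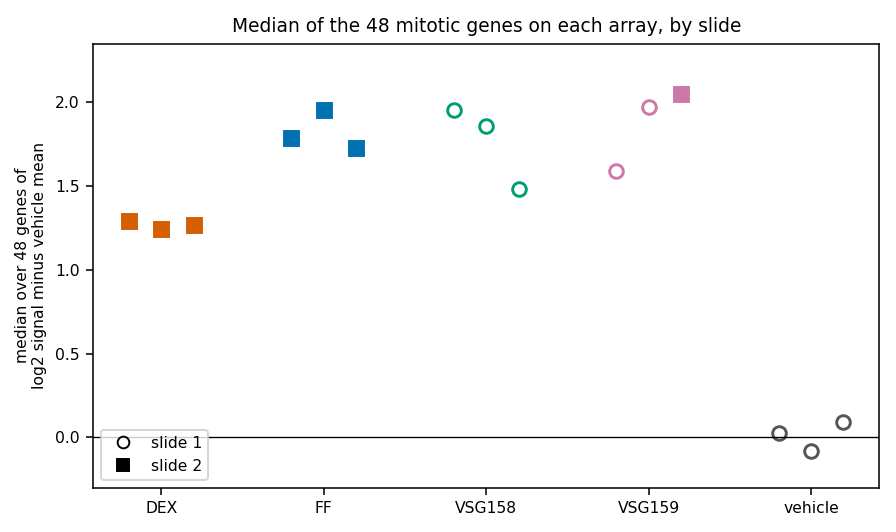
Median over the 48 mitotic genes of the log2 signal minus the vehicle mean, for each array; open circles are on slide 1 and filled squares on slide 2. The DEX arrays lie at 1.24 to 1.29 and the other steroid arrays at 1.48 to 2.05, and the VSG159 array on slide 2 lies at 2.05 beside 1.59 and 1.97 for those on slide 1.

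The test of that difference was the direct comparison with DEX. With FF, 17 of the 48 genes were higher than with DEX and 0 lower, beside 1.89% and 2.3% of all genes, and the median difference was 0.63. With VSG158 the count was 10 higher and 0 lower (1.08% and 0.964% of all genes, median 0.53), and with VSG159 17 and 0 (1.45% and 4.15%, median 0.61). At an unadjusted p under 0.05 a further 21, 22 and 21 genes differed. The 3 comparisons share the DEX arrays.

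For FF against DEX, the largest called difference after Kif11 was that of Ccna2, 1.16 ± 0.19 (adjusted p 0.01), followed by Cenpf at 1.13 ± 0.25, Prc1 at 1.05 ± 0.15 and Plk1 at 1.04 ± 0.13 (adjusted p 0.0311, 0.00558 and 0.00224). Kif11, below background with DEX, was at least 1.69-fold higher with FF. For VSG158 the genes were Kif11 (at least 1.26-fold), Ccna2 at 0.96 ± 0.19, Espl1 at 0.87 ± 0.15, Plk1 at 0.87 ± 0.13 and Top2a at 0.82 ± 0.15. For VSG159 they were Kif11 (at least 1.29-fold), Cenpf at 1.11 ± 0.25, Prc1 at 1.09 ± 0.15, Espl1 at 1.07 ± 0.15 and Ccna2 at 0.97 ± 0.19. In each of these genes every array of the other steroid lay above every DEX array.

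Bub3 and Kif2c had the opposite sign, with values under those of DEX for all 3 other steroids (-0.51, -0.46 and -0.27 for Bub3), and neither was called. For Kif2c the sign depended on the probe, the brightest having 4 missing spots. Its other probe lay above DEX by 1.10 with FF, 0.36 with VSG158 and 0.91 with VSG159, also uncalled. Bub1b differed from DEX by at most 0.21.

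The calls against DEX rested on more of the processing than those against vehicle. With arrays scaled to their median in place of the 75th percentile, limma called 0 genes with FF, VSG158 or VSG159 against DEX (31, 11 and 28 at an unadjusted p under 0.05), while the median differences were 0.70, 0.49 and 0.71. With slide and position fitted it again called 0 in each (14, 1 and 5 at an unadjusted p under 0.05). FF and DEX lie on 1 slide, and within that slide 18 genes were called higher with FF, beside 801 calls over all genes tested. VSG158 shares no slide with DEX, and with slide as a random block limma called 0 genes (29 at an unadjusted p under 0.05). Within slide 2, where VSG159 has 1 array, Aurka, Prc1, Ube2c and Top2a were called.

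These counts also moved with single arrays. For FF against DEX the 17 calls became 8, 9 and 5 without DEX replicate 1, 2 or 3, 7, 4 and 9 without FF replicate 1, 2 or 3, and 26 without VSG158 replicate 3. For VSG158 against DEX the 10 became 1, 3 and 1 without DEX replicate 1, 2 or 3, 2 and 1 without VSG158 replicate 1 or 2, and 21 without VSG158 replicate 3. For VSG159 against DEX the 17 became 6, 9 and 4 without DEX replicate 1, 2 or 3 and 4 without VSG159 replicate 2. The median difference over the 48 genes stayed between 0.58 and 0.69 for FF, 0.43 and 0.64 for VSG158 and 0.54 and 0.73 for VSG159 across all 15 omissions. VSG158 replicate 3 held 889 spots flagged as non-uniform, VSG159 replicate 2 559 and VSG159 replicate 1 541, against at most 218 on any other array. Without these 3 arrays together, an alternative chosen after seeing the data, 28 genes were called for FF against DEX and 23 for VSG158 against DEX. Over all genes tested the calls rose as well, to 2195 and 695 from 813 and 396.

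**Figure D5:**
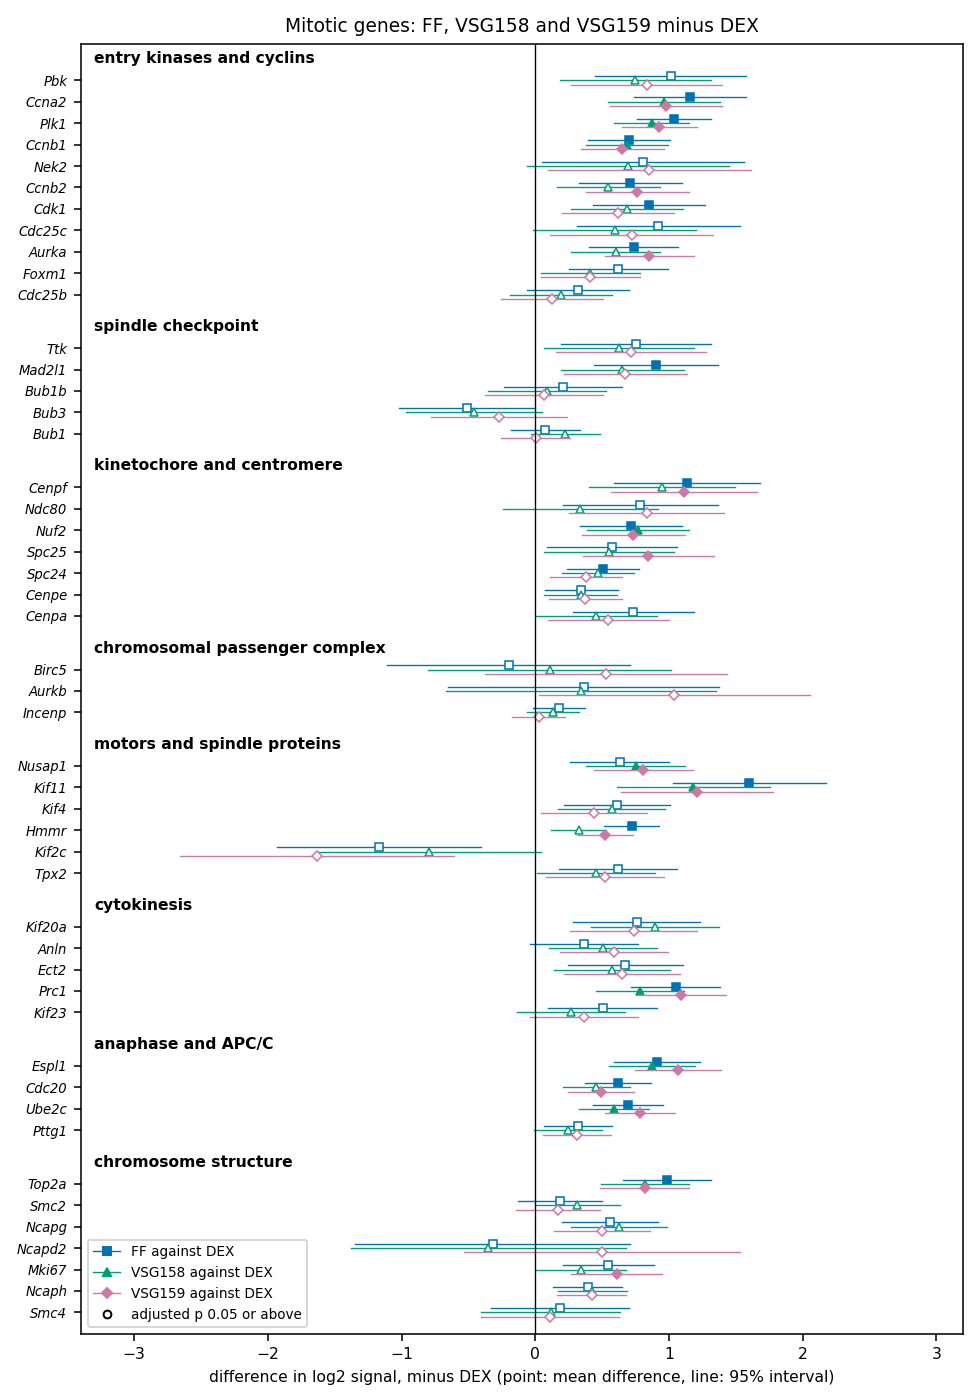
Difference in log2 signal of FF, VSG158 and VSG159 minus DEX for the 48 mitotic genes, with 95% intervals and filled symbols for calls (3 arrays a group). Most points lie right of 0, with medians of 0.63, 0.53 and 0.61, and the Kif2c and Bub3 points lie left of it. Each gene is shown by its brightest tested probe only.

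No difference among FF, VSG158 and VSG159 was called on these genes. In VSG158 against FF, VSG159 against FF and VSG158 against VSG159, limma called 0 of the 48 genes, beside 0% of all genes in each direction (1220, 1181 and 1202 of all genes at an unadjusted p under 0.05). At an unadjusted p under 0.05 the counts were 1, 0 and 0 of 48, the 1 being Hmmr, lower with VSG158 than with FF (difference -0.40 ± 0.09, adjusted p 0.785). The median differences were -0.11, -0.04 and -0.06. The 95% interval lay within a 2-fold change either way for 43, 44 and 43 of the 48 genes. It reached past 2-fold for Aurkb, Birc5, Kif2c and Ncapd2 in each of the 3 pairs and for Ndc80 in both pairs with VSG158, so differences above 2-fold lie within the error of those genes.

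In 6 pairs of steroids compared, p-values adjusted over all 10 comparisons together gave 28 calls for FF against DEX, 20 for VSG158 against DEX, 26 for VSG159 against DEX (25 higher and 1 lower) and 1 for VSG158 against FF, which was Hmmr. Over all genes tested the calls rose as well, to 1857, 1271, 2006 and 184 from 813, 396, 1085 and 0 in the same order. All 4 steroids were given at the same dose and for the same time.

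Related genes outside the list were read from lists of the same processes. Over all genes tested, 23.4%, 21%, 19.9% and 19.2% were called higher with DEX, FF, VSG158 and VSG159. The shares called lower were 23.3%, 21.5%, 24.7% and 25.2%. Whether the counts in these lists differ from those shares was not tested. A single falling gene is therefore no finding about its list. Of 31 other kinetochore and centromere genes, 22 rose and 3 fell with DEX and 24 rose and 3 fell with each other steroid. Ska1, of the complex that tracks microtubule ends, rose most (2.64, 3.45, 3.44 and 3.32 with DEX, FF, VSG158 and VSG159), and Cenpc1, Cenpt and Zwint were the 3 that fell. Of 26 other spindle, motor and cytokinesis genes, 18 rose with DEX and 20 with each other steroid, led by Aspm, a spindle-pole protein (3.41, 4.48, 4.18 and 4.34). Ckap5, a microtubule polymerase, was the 1 gene called lower there, with FF, VSG158 and VSG159.

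Of 20 other entry regulators and checkpoint genes, 12 rose and 5 fell with DEX, 12 and 4 with FF, 12 and 3 with VSG158 and 11 and 4 with VSG159. Pimreg rose most in that list, by 2.59 with DEX and 3.71 with FF, and Cks2, a CDK-binding subunit, fell with every steroid (-0.88 with FF). The 26 genes of DNA replication and nucleotide synthesis rose about as much as the mitotic genes, 22 with DEX and 24 with each other steroid, with medians of 1.47, 2.06, 1.95 and 2.10 and none lower. Tk1, thymidine kinase, led them at 3.97, 4.74, 4.68 and 4.63.

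Of 16 APC/C subunits and regulators, 8 rose and 3 fell with DEX, FF and VSG158 and 7 rose and 4 fell with VSG159, with medians of 0.18, 0.19, 0.20 and 0.05. Fbxo5, the EMI1 inhibitor of the APC/C, stood out there with 2.79, 3.89, 3.87 and 4.12, while Cdc27, a core subunit, was lower with every steroid. Of 14 cohesin and condensin II genes, 5 rose and 2 fell with DEX, 6 and 2 with FF, and 6 and 3 with VSG158 and with VSG159. Esco2, the cohesin acetyltransferase of S phase, rose most (2.98 with DEX and 3.64 with VSG158).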

How the data were processed

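RNA from 15 RAW264.7 samples was measured on one-colour Agilent mouse arrays. Per the file headers, the authors scanned and extracted them with Feature Extraction 10.7.3.1 (protocol GE1_107_Sep09, array design on mm9), which gave a background-subtracted intensity per spot. The values in the deposited table are log2 values and correlated at 0.988 to 0.994 with log2 of the processed intensity, with column medians of 5.80 to 5.83, and their exact normalization is not given in the sources used here. Limma is named, with no version, in the submitters' processing notes.

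From the scanner files, log2 of the processed signal was scaled to a common 75th percentile after leaving out 3671 control spots of 62976 and spots flagged as outliers. Probes well above background on at least 2 of 3 arrays of 1 or more groups were tested (28386 of 56605), and the brightest probe stood for a gene (19400 genes). Missing values, 1739 in all, were dropped by the fit. One limma model (limma 3.58.1, R 4.3.3, with the data.table package at version 1.17.8) with group alone was fitted to all 15 arrays (10 residual degrees of freedom), with 10 comparisons, and p-values were Benjamini-Hochberg adjusted within each at 0.05. An exact permutation test of 3 against 3 arrays cannot give a p below 0.1. The fit was tested on simulated data. The number of arrays limits the precision. Slide 1 holds vehicle, VSG158 and 2 VSG159 arrays, and slide 2 holds DEX, FF and 1 VSG159 array.

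Genes were named by role group: values on every array are given for 9 main genes and for the largest, middle and smallest change of each group, and between steroids for up to 5 called genes. The genes, lists and tests were chosen with earlier results of these data known. The alternatives covered scaling, background, dim-probe filter, probe choice, flagged spots, slide, position, replicate block, samples in the fit, adjustment and leaving out each array.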

Additional observations from a re-analysis of the deposited data

How the results depend on the processing

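The rises against vehicle held under most of the settings tried, and the calls against DEX varied more. Quantile normalization kept 15 of the 17 calls with FF against DEX, 7 of the 10 with VSG158 and 16 of the 17 with VSG159. The deposited table kept 12, 5 and 7, and slide as a fixed block 17, 1 and 8. Leaving out each array in turn gave 41 to 45 calls with DEX, 41 to 44 with FF, 41 to 44 with VSG158 and 42 to 44 with VSG159 against vehicle. Against DEX it gave 4 to 26 with FF, 1 to 21 with VSG158 and 4 to 22 with VSG159. It gave 0 in the pairs without DEX or vehicle. With slide and position fitted, the calls were 0 with DEX and 20 with FF against vehicle, and 0 with FF, VSG158 and VSG159 against DEX. Over all genes tested this fit gave 38, 1076, 0, 0 and 0 calls in the same order. Scaling to the median gave 0, 0 and 0 against DEX with FF, VSG158 and VSG159. Over all genes tested it gave 4, 17 and 30 calls, beside 813, 396 and 1085 with the 75th percentile. Without a filter on dim probes the counts against DEX were 7, 1 (Plk1) and 4 (Plk1, Prc1, Ube2c and Espl1), beside 111, 78 and 159 over all genes. With p adjusted over all 10 comparisons they were 28, 20 and 26, and 1 for VSG158 against FF (Hmmr), beside 1857, 1271, 2006 and 184 over all genes. Slide as a fixed block gave 3 for VSG158 (Top2a higher, Bub3 and Ncapd2 lower) and 10 for VSG159 against DEX, and as a random block 0 and 7. Over all genes tested the fixed block gave 939 and 685 calls and the random block 0 and 223. Fitting only the 2 groups compared, limma gave 0 and 0 (29 and 34 at an unadjusted p under 0.05), beside 0 and 1 over all genes tested. The deposited value table gave 8 and slide 2 alone 4 for VSG159. Leaving out the 3 arrays with most non-uniform spots, chosen after seeing the data, gave 28 for FF and 23 for VSG158, beside 2195 and 695 over all genes. The cause of these moves was not tested. Samples with the same replicate number did not as a whole deviate together (r -0.56 to 0.29). Of their pairs 7 of 30 were over 0.1, beside 20 of 60 with unlike numbers, and 1 of 15 arrays correlated best with its own number. Replicate 3 of vehicle, VSG158, FF and DEX did correlate (r 0.09 to 0.29), and VSG159 replicate 3 went against each (r -0.55 to -0.32). Slide and position vary too, so the check cannot tell whether the numbers mark pairs. The replicate block gave 10, 4 and 9 calls against DEX with FF, VSG158 and VSG159.

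Signs reversed for 7 genes against vehicle. The second Cdk1 probe gave -0.34, -0.30, -0.65 and -0.32 with DEX, FF, VSG158 and VSG159. Cdc25b with FF was -0.0061 with normexp. Kif2c with slide and position was -0.091 with FF, -0.17 under VSG158 and 0.039 under VSG159, and with VSG159 it was 1.52 as the mean of probes, 1.93 with flagged spots kept and 3.27 by its second probe. Tpx2 with slide and position was 0.17, 0.048 and 0.24 with FF, VSG158 and VSG159, and 0.14 with VSG159 without the 3 non-uniform arrays. Kif23 was -0.067 with DEX as the mean of probes and -0.045 with VSG159 by its second probe, and Smc2 was -0.17 with DEX by its second probe. Smc4 with DEX was 0.13 with normexp, 0.11 in the deposited table and 1.16 with slide and position. With FF it was -0.32 under the fixed and -0.10 under the random slide block and -0.073 by its second probe. Smc4 was -0.010 with VSG158 at median scaling, and with VSG159 -0.10 with slide fixed, -0.024 with slide random and -0.10 on slide 1 alone. Leaving out 1 array ranged from -0.094 to 0.18 for Cdc25b with FF, -0.22 to 0.057 for Cdc25b with VSG158, -0.18 to 0.013 for Smc4 with DEX, -0.13 to 0.38 for Smc4 with VSG158 and -0.10 to 0.14 for Smc4 with VSG159. Dim probes such as Kif11 carry bounds only.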
